A study of Mus musculus with 12 samples.

Results

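Interferon-gamma acts on a tumour through a short chain of proteins, and 9 genes of that chain were followed here through 12 bulk libraries of subcutaneous B16 melanoma. They were chosen by symbol: the receptor chains Ifngr1 and Ifngr2, the kinases Jak1 and Jak2, the transcription factors Stat2, Irf9, Irf7 and Irf1, and the feedback inhibitor Socs1. All 9 were found among the 32416 gene symbols of the expression table. All 9 also passed the filter on low values, in every comparison below. That filter asks for 1 TPM or more in a number of libraries equal to the smaller group. TPM, the authors' unit of abundance, is scaled for sequencing yield and transcript length, so that levels can be set side by side between genes.

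The tumours grew in C57BL/6 mice from B16 cells engineered to over-express Aoah (acyloxyacyl hydrolase, an enzyme that deacylates lipopolysaccharide) or from cells with the control Vector. The B16mhgp100 model gave 4 Aoah and 4 Vector tumours, all treated with anti-PD1 from day 10 after inoculation. The B16F10 model gave 2 Aoah and 2 Vector tumours, all treated with anti-PD1 and anti-CTLA4 from day 6. Each antibody was given at 200 µg per dose, with 2 doses per week and 4 doses in all, and tumours were collected 1 day after dosing ended. There was no arm without checkpoint antibody, and the model, the antibodies and the starting day changed together, so that their parts in a difference between models cannot be told apart. The promoter of the Aoah vector and whether each line is 1 clone were not stated in the labels. Nothing says whether the tumours came from separate mice, so the p-values measure the spread between these libraries.

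As background, interferon-gamma from T cells and NK cells binds Ifngr1 and Ifngr2, whose cytoplasmic tails hold Jak1 and Jak2. The kinases activate a STAT factor that binds gamma-activated sequences, known as GAS elements, and switches on Irf1, which in turn drives antigen presentation genes. Stat2 and Irf9 are subunits of the complex used by type I interferon, Irf7 amplifies type I interferon production, and Socs1 blocks the kinases and ends the signal. In melanoma, this pathway is known both for raising antigen presentation and for being lost in tumours that resist checkpoint antibodies.

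The promoter windows of 3 members are shown because they hold matches to the DNA motifs of this pathway. The RefSeq promoter table of build GRCm38.p6, which is not the authors' build mm39, gave 11 start sites for the 9 genes. The 250 bases before each start were searched on both strands for the GAS motif TTCNNNGAA and for a pair of interferon regulatory factor half-sites, GAAA, with 2 bases of any kind between them. The Irf1 window is chr11:53769764-53770013 on the plus strand, the Socs1 window chr16:10785537-10785786 on the minus strand and the Stat2 window chr10:128270248-128270497 on the plus strand. Each is written 5′ to 3′ along its gene, and capitals mark the matches.
Irf1: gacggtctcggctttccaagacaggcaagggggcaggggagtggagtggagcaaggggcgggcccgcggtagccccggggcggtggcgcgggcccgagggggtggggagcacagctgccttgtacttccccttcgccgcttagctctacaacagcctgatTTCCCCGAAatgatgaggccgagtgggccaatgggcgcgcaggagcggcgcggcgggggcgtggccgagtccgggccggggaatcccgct
Socs1: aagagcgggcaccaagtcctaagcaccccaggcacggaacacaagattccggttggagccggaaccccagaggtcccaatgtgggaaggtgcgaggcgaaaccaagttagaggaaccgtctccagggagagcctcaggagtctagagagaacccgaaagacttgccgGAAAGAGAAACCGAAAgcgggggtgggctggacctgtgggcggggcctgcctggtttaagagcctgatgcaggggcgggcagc
Stat2: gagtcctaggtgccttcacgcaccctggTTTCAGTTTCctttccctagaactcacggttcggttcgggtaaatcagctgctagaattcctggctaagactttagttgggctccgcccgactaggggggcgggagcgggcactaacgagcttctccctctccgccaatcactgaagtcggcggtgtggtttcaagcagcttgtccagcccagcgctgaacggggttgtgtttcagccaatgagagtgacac
The Irf1 window held 1 GAS match, TTCCCCGAA, from 90 to 82 bases before the start. The Socs1 window held 2 overlapping half-site pairs, GAAAGAGAAA from 83 to 74 and GAAACCGAAA from 77 to 68 bases before the start. The Stat2 window held 1 pair on the opposite strand, read here as TTTCAGTTTC, from 222 to 213 bases before the start. Among all 32851 promoter windows of this length, 7.02% held the GAS motif and 2.98% the pair. Irf1 has a second start site in the table, whose window, chr11:53770223-53770472, held neither string. A match is a string of letters, not a measured site, and the windows of the other 6 members held neither string.

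The over-expressed gene was checked first. Aoah stood at 21.75 and 23.73 TPM in the B16F10 Aoah tumours and at 1.49 and 0.75 TPM in their Vector tumours. In B16mhgp100 it stood at 17.92, 22.46, 13.96 and 3.91 TPM in the Aoah libraries and at 7.58, 0.89, 2.43 and 1.57 TPM in the Vector libraries. The library labelled B16mhgp100 Aoah 4 was thus inside the Vector range. It also stood apart in other ways: its 5 keratinocyte markers summed to 5565.68 TPM against at most 30.38 TPM in the other libraries, its 7 melanocyte markers to 7801.74 TPM, the lowest of 12, and its median correlation with the other libraries over genes was 0.835. The library labelled B16F10 Vector 2 had the largest mitochondrial share, 10.39% of TPM against 2.77% to 6.38% elsewhere. Melanocyte markers were high in all 12 libraries, which fits the melanoma label. Differences between groups are also given without them where a call or a value turns on them.

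The 9 genes differed in how far they ranged over the 12 libraries. The highest library exceeded the lowest by 2.56 times for Ifngr1, 2.24 times for Ifngr2, 2.72 times for Jak1 and 4.15 times for Jak2. The same ratio was 8.64 for Stat2, 7.66 for Irf1, 9.65 for Irf7, 6.89 for Socs1 and 3.08 for Irf9. With the libraries labelled B16mhgp100 Aoah 4 and B16F10 Vector 2 left out, a choice made after seeing the data, the ratios were 2.55 for Ifngr1, 1.99 for Ifngr2, 1.85 for Jak1 and 2.01 for Jak2. They were then 4.55 for Stat2, 3.26 for Irf1, 6.73 for Irf7, 5.25 for Socs1 and 1.61 for Irf9. Irf1 ran from 31.87 to 244.08 TPM and Socs1 from 2.05 to 14.12 TPM. The library labelled B16F10 Vector 2 was the lowest of 12 for Ifngr1, Stat2, Irf1, Irf9, Irf7 and Socs1, and the library labelled B16mhgp100 Aoah 4 was the lowest for Ifngr2, Jak1 and Jak2.

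**Figure D1:**
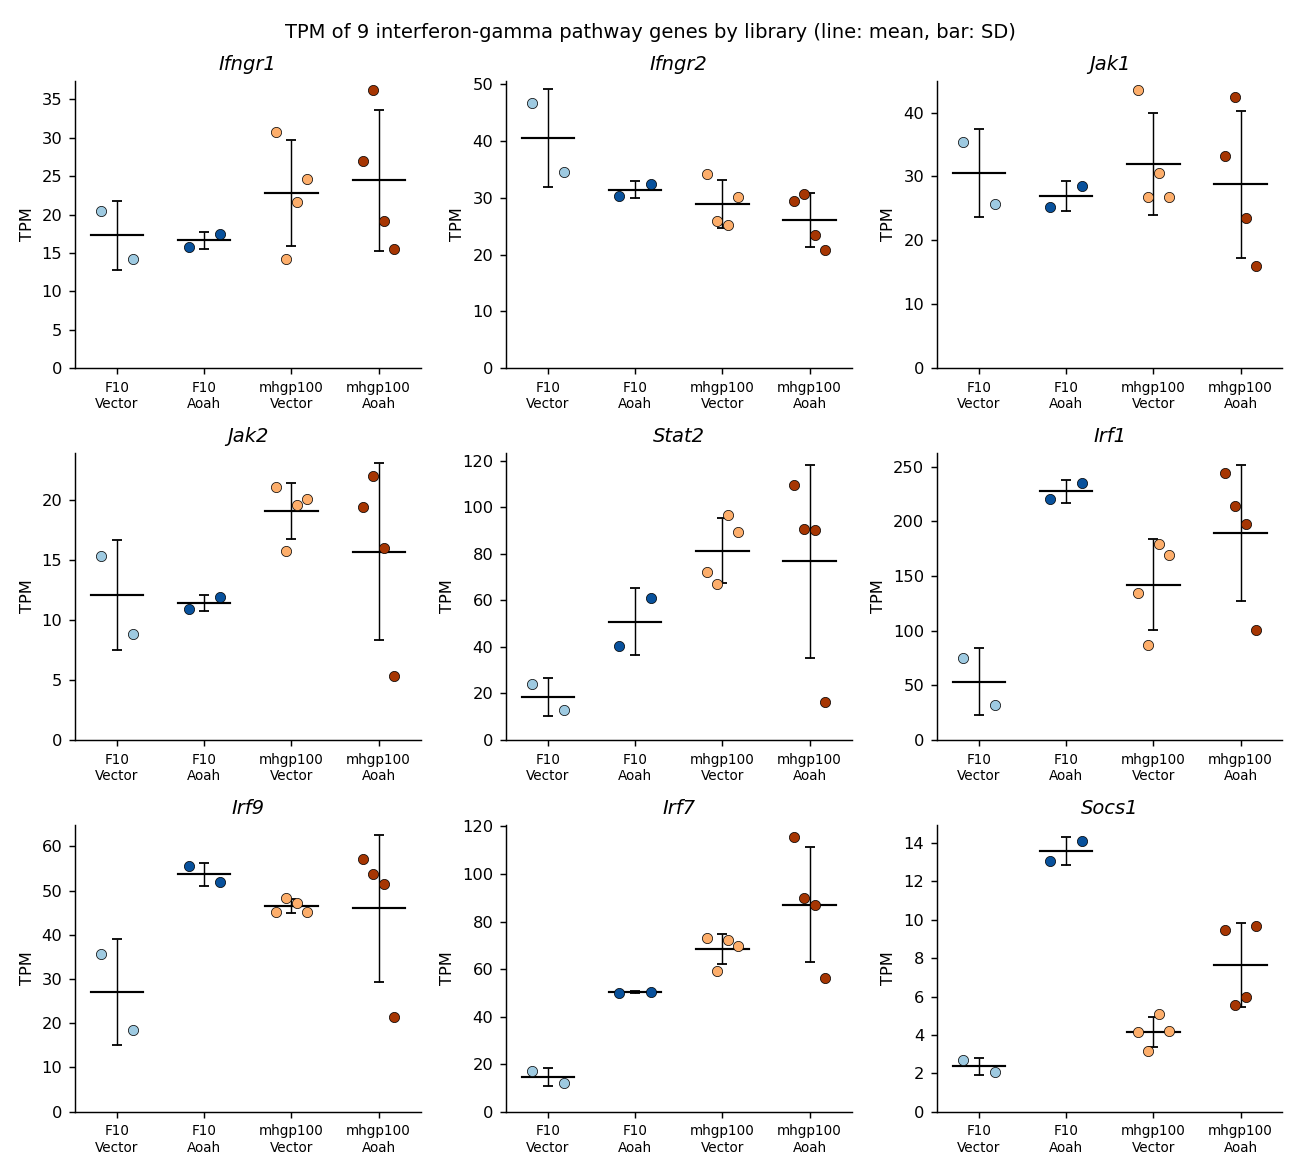
TPM of each of the 9 genes on a linear axis from 0, 1 point per library, for the Vector and Aoah tumours of both models. The horizontal line is the group mean and the bar its SD. Stat2, Irf1, Irf9, Irf7 and Socs1 were lowest in the 2 B16F10 Vector tumours, apart from the library labelled B16mhgp100 Aoah 4, which was lower than 1 of them for Stat2 and Irf9.

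In B16F10 tumours, all 4 transcription factor genes and Socs1 stood higher in both Aoah tumours than in both Vector tumours, while the receptor and kinase genes differed little. The mean of Irf1 was 227.4 ± 10.2 TPM (SD, n = 2) with Aoah and 53.36 ± 30.4 TPM (SD, n = 2) with Vector. With 2 libraries against 2, none of the 9 members passed an adjusted p of 0.05 in limma, against 0.344% of all 14533 genes tested. At an unadjusted p under 0.05, 5 of 9 members passed in limma, all of them higher, against 10.9% of all genes that passed and were higher. The authors' deposited DESeq2 table for this model called 5 of the 9, again all higher, against 4.65% of 14328 genes.

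The receptor chains and kinases come first in the chain. Ifngr1, the ligand-binding chain, measured 15.82 and 17.45 TPM in the B16F10 Aoah tumours and 20.47 and 14.15 TPM in the Vector tumours. Ifngr2, the signalling chain, measured 30.42 and 32.47 TPM with Aoah and 46.66 and 34.48 TPM with Vector, so that both Aoah libraries were lower. Its log2 difference was -0.34 (SE 0.22, adjusted p = 0.467 in limma), with a 95% interval from -0.90 to 0.21. Jak1, the kinase held by Ifngr1, differed by -0.16 on the log2 scale, with an interval from -0.75 to 0.43. Jak2, the kinase held by Ifngr2, differed by -0.03, with an interval from -0.83 to 0.77. Ifngr1 differed by -0.03, with an interval from -0.69 to 0.62, so that changes of up to about these sizes cannot be seen with these libraries. Ifngr2 was the 1 member with no overlap in the lower direction, where 22.6% of all genes had none.

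The transcription factors were where the libraries separated. Stat2 measured 40.56 and 61.07 TPM in the B16F10 Aoah tumours against 24.08 and 12.68 TPM in the Vector tumours, a log2 difference of 1.46 (SE 0.37, adjusted p = 0.145 in limma). Irf9, its partner, measured 55.45 and 51.86 TPM against 35.57 and 18.58 TPM, a log2 difference of 1.03 (SE 0.33, adjusted p = 0.199 in limma). For both genes the groups did not overlap. For Irf9 the Vector library labelled 2 was about as far in TPM from its fellow as that one was from the Aoah tumours. For Stat2 the Vector libraries were closer to each other in TPM than either was to the Aoah tumours.

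Irf7 and Irf1 separated further. Irf7, the amplifier of type I interferon, measured 50.08 and 50.52 TPM with Aoah and 17.16 and 11.97 TPM with Vector, a log2 difference of 1.74 (SE 0.24, adjusted p = 0.0616 in limma). Irf1, a direct target of the receptor's STAT factor, measured 220.16 and 234.62 TPM with Aoah and 74.85 and 31.87 TPM with Vector, a log2 difference of 2.19 (SE 0.40, adjusted p = 0.0976 in limma). The Aoah libraries of each gene lay close together, and the spread sat in the Vector libraries.

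The feedback inhibitor showed the smallest p of the 9. Socs1 measured 13.08 and 14.12 TPM in the B16F10 Aoah tumours and 2.69 and 2.05 TPM in the Vector tumours, a 5.74-fold ratio of means. Its log2 difference was 2.12 (SE 0.26, adjusted p = 0.0585 in limma), with a 95% interval from 1.46 to 2.78. In the authors' deposited table its log2 fold change was 2.51 (SE 0.34, adjusted p = 3.09e-11). That table also called Irf7 (1.79, adjusted p = 2.33e-09), Irf1 (2.12, adjusted p = 2.74e-09), Stat2 (1.48, adjusted p = 0.000153) and Irf9 (1.01, adjusted p = 0.012). In the authors' deposited table the receptor and kinase genes ranged from -0.37 for Ifngr2 (adjusted p = 0.408) to -0.06 for Ifngr1 (adjusted p = 0.953).

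The call in B16F10 changed with the fit, and the cause was not tested. Irf7 and Socs1 passed in limma with median-of-ratios scaling, and with all 12 libraries in the fit. With scaling their adjusted p was 0.0287 and 0.0279 in limma, in a fit that called 129 of all genes against 50. With all 12 libraries it was 0.0357 and 0.0145, and the number of all genes called there is not reported here. Without the library labelled Vector 2, Irf1, Irf9, Irf7 and Socs1 passed with log2 differences from 0.58 for Irf9 to 1.98 for Socs1, and Stat2 did not (1.02, adjusted p = 0.0617 in limma). Without Vector 1, all 5 passed, with differences from 1.48 for Irf9 to 2.80 for Irf1. In both of these fits the lone Vector library is assumed to vary like the Aoah group, and over all genes they called 2394 and 2285 genes against 50 with both libraries. All 5 genes and Ifngr2 had an exact 2-sided permutation p of 0.333, the lowest value possible for 2 against 2. Groups did not overlap, higher, for 5 of 9 members and for 28% of all genes, so that this separation alone is common here.

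**Figure D2:**
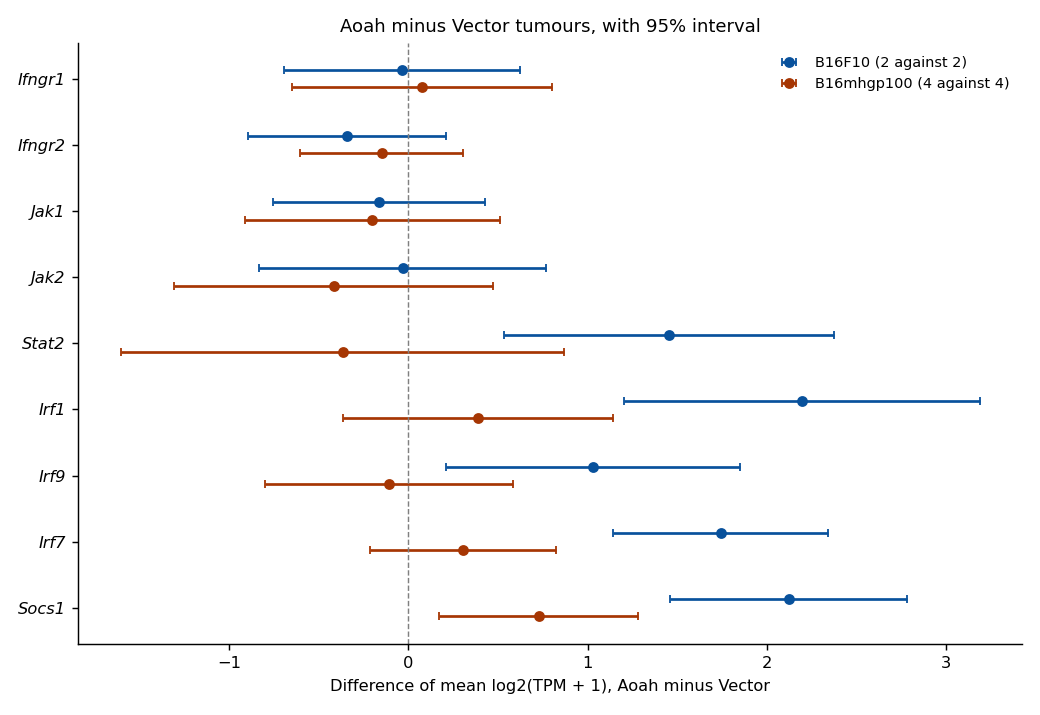
Difference of mean log2(TPM + 1), Aoah minus Vector, for each gene in B16F10 (2 against 2) and B16mhgp100 (4 against 4), with the 95% interval from limma. In B16F10 the intervals of Stat2, Irf1, Irf9, Irf7 and Socs1 lie above 0, and in B16mhgp100 that holds for Socs1, whose interval runs from 0.17 to 1.28. Intervals are not adjusted for the number of genes.

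Ligand and immune cell transcripts moved alongside. Ifng itself measured 2.76 and 2.61 TPM in the B16F10 Aoah tumours and 0.51 and 0.00 TPM in the Vector tumours, where the second is listed at 0 (adjusted p = 0.104 in limma). The summed TPM of 8 T cell markers was 69.1 to 83.2 in the B16F10 Aoah tumours and 4.14 to 11.79 in the Vector tumours. All 8 were above 0 in log2 difference and 2 passed the test, Cd8a (3.25, adjusted p = 0.0286 in limma) and Cd8b1 (2.76, adjusted p = 0.0384), the chains of the cytotoxic T cell co-receptor, against 0.289% of all genes called higher. These 2 calls were lost without the filter on low values, where limma called 0 of 26770 genes. Cd8a and Cd8b1 were below 1 TPM in both Vector tumours, as were Cd3d and Cd4. These genes passed the filter only through the Aoah tumours, where they were high, so the 2 calls give no support of their own. None of the 8 T cell markers was listed at 0 throughout a group. Sums of 7 macrophage markers were 844.91 to 959.77 TPM against 478.43 to 509.24 TPM, with 6 of 7 higher and none past the threshold. Of 5 keratinocyte markers, 3 were kept and 2 passed, with sums of 19.38 to 21.75 TPM against 0.47 to 15.29 TPM. Krt10 and Lor, among those kept, were below 1 TPM in both Vector tumours and passed the filter only through the Aoah tumours. The 2 keratinocyte calls were also lost without the filter. Sums of the 4 fibroblast markers, 64.78 to 104.5 TPM against 195.09 to 210.88 TPM, and of the 3 endothelial markers, 17.6 to 19.98 TPM against 42.59 to 60.74 TPM, were lower in the Aoah tumours, with none of either list past the threshold. NK cell markers summed to 4.21 to 7.05 TPM against 0.84 to 1.61 TPM. Of these 4, 1 was kept and did not pass, Klrd1, at 2.39 and 5.58 TPM against 0.75 and 0.47 TPM. Melanocyte markers summed to 28245.24 to 29291.54 TPM against 18544.52 to 21777.92 TPM, with 5 of 7 above 0, a median of 0.254 and none past the threshold. Pmel measured 15880.78 and 14592.1 TPM against 7197.31 and 8252.31 TPM. Mlana and Mitf had lower means with Aoah, 1223 against 1510 TPM and 143.1 against 194.8 TPM. The part of this cell content in the levels of the 9 genes was not tested, and in bulk tumour fewer cells of a type and less RNA per cell cannot be told apart.

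Across all 12 libraries the level of Irf1 and Socs1 could be set beside Ifng and the T cell sum. Both genes were lowest in the library with Ifng listed at 0, B16F10 Vector 2. Socs1 was highest in the 2 libraries with the highest Ifng and T cell sums, the B16F10 Aoah tumours. Irf1 broke from the order of the T cell sum: the highest library was B16mhgp100 Aoah 1, at 244.08 TPM. That library had a T cell sum of 16.96 TPM. Its Ifng, 2.55 TPM, lay close to the 2.76 and 2.61 TPM of the B16F10 Aoah tumours. Over the 12 libraries the Pearson correlation of log2(TPM + 1) with Ifng was 0.85 for Irf1 and 0.84 for Socs1. With the T cell sum it was 0.69 and 0.86. These values include the differences between groups.

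**Figure D3:**
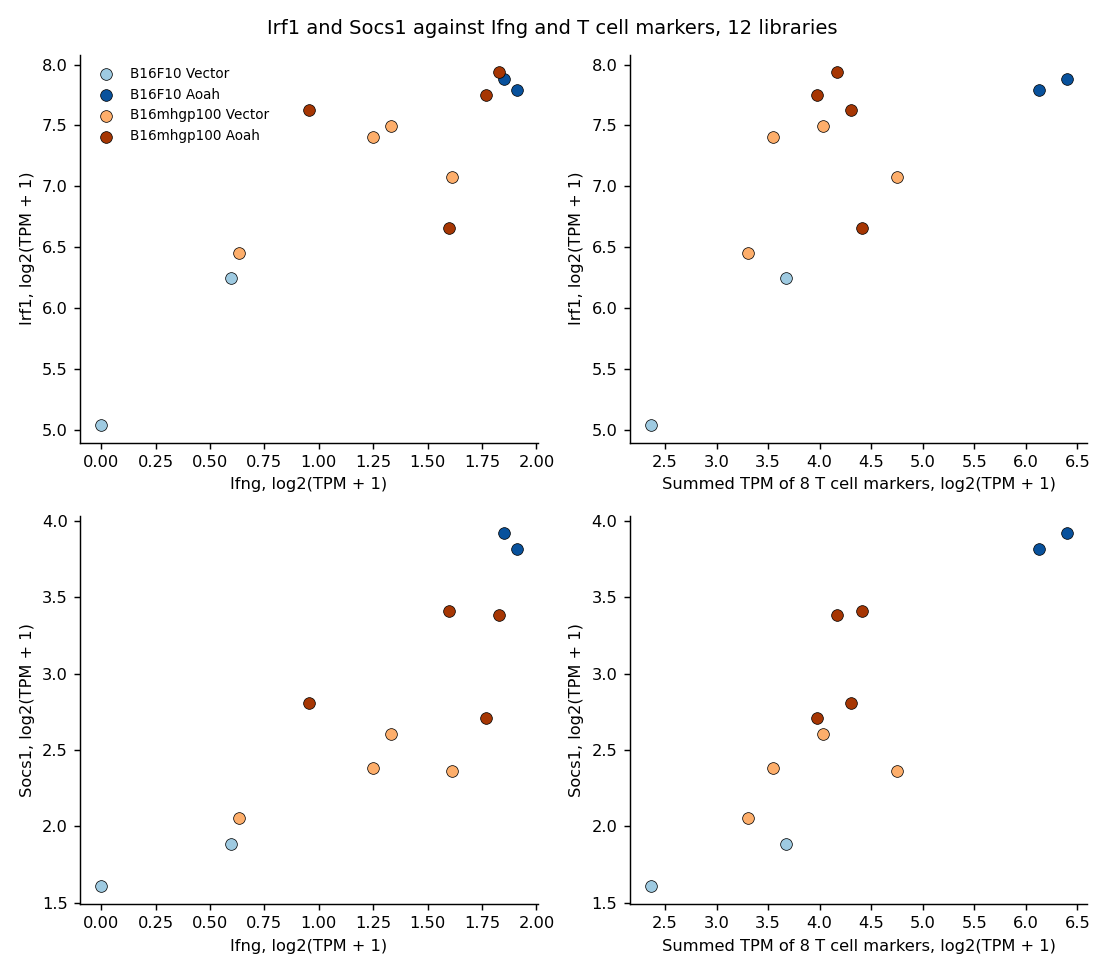
Irf1 (top) and Socs1 (bottom) in log2(TPM + 1) against Ifng (left) and the summed TPM of 8 T cell markers (right), 1 point per library, coloured by group. The 2 B16F10 Aoah tumours stand alone at the right of the T cell axis, while 3 of the 4 B16mhgp100 Aoah libraries have Irf1 at 197.20 to 244.08 TPM with T cell sums of 14.77 to 18.74 TPM. Points share library preparation and scaling, and no p is given.

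In B16mhgp100 tumours the 9 genes showed smaller differences, and Socs1 was the 1 member with every Aoah library above every Vector library. None of the 9 passed an adjusted p of 0.05 in limma, where 0% of 14228 genes did, and 1 of 9 passed at an unadjusted p under 0.05, against 2.46% of all genes. The authors' deposited table called none of the 9 here, and 0.0146% of 20534 genes. The median of all genes was itself at -0.201 on the log2 scale and moved to -0.022 with median-of-ratios scaling, so differences below are also given relative to the median gene.

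Socs1 measured 9.46, 5.54, 6.00 and 9.65 TPM in the B16mhgp100 Aoah libraries and 4.14, 3.16, 5.09 and 4.22 TPM in the Vector libraries. The groups did not overlap, which held for 0.731% of all genes in this direction. The log2 difference was 0.73 (SE 0.25, unadjusted p = 0.0162, adjusted p = 0.694 in limma), or 0.93 relative to the median gene. The exact 2-sided permutation p was 0.0286, the smallest that 4 against 4 allows and not adjusted for the number of genes. In the authors' deposited table the log2 fold change was 1.18 (SE 0.39, adjusted p = 0.462).

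Irf1 and Irf7 were higher in 3 of the 4 Aoah libraries than in any Vector library. Irf1 measured 244.08, 214.36, 197.20 and 100.14 TPM with Aoah and 134.07, 86.47, 179.11 and 168.91 TPM with Vector. Irf7 measured 115.53, 90.02, 86.80 and 56.23 TPM with Aoah and 72.94, 59.24, 72.14 and 69.52 TPM with Vector. The lowest Aoah value of each gene came from the library labelled Aoah 4. Their log2 differences were 0.39 (SE 0.33) and 0.30 (SE 0.23), both with adjusted p = 0.694 in limma, or 0.59 and 0.50 relative to the median gene.

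Stat2 and Irf9 were also lowest, among the Aoah libraries, in the library labelled Aoah 4. Stat2 measured 109.57, 90.67, 90.44 and 16.23 TPM with Aoah and 72.41, 66.99, 96.69 and 89.29 TPM with Vector. Irf9 measured 57.22, 53.84, 51.44 and 21.39 TPM with Aoah and 45.10, 48.29, 47.29 and 45.24 TPM with Vector. Without the library labelled Aoah 4, Irf1 (218.5 ± 23.7 TPM, SD, n = 3), Irf9 (54.17 ± 2.9 TPM), Irf7 (97.45 ± 15.7 TPM) and Socs1 (7.00 ± 2.14 TPM) each lay above every Vector library, which held for 2.96% of all genes with that library left out. Their log2 differences were then 0.67, 0.22, 0.50 and 0.62, that of Stat2 turned from -0.37 to 0.26, and no member passed the threshold in limma.

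The receptor and kinase genes of B16mhgp100 overlapped between Aoah and Vector in every case. Their log2 differences were 0.07 for Ifngr1, -0.15 for Ifngr2, -0.20 for Jak1 and -0.42 for Jak2, and relative to the median gene they ran from -0.22 for Jak2 to 0.28 for Ifngr1. With median-of-ratios scaling Ifngr2 turned to 0.0552 and Irf9, at -0.11, to 0.0945. The widest interval of the 4, that of Jak2, ran from -1.30 to 0.47. Without the library labelled Aoah 4 the differences were 0.26, -0.05, 0.04 and -0.0005. T cell sums were 14.77 to 20.23 TPM with Aoah and 8.91 to 25.88 TPM with Vector, and Ifng measured 2.55, 2.41, 0.94 and 2.03 TPM against 2.06, 0.55, 1.52 and 1.38 TPM.

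The difference between the Aoah effects of both models was tested as an interaction over all 12 libraries. None of the 9 members passed in limma, against 0.0302% of 16556 genes, while 3 of 9 passed at an unadjusted p under 0.05, against 5.65%. Those were Irf7 (log2 difference of differences 1.44, SE 0.38, adjusted p = 0.512), Socs1 (1.39, SE 0.38, adjusted p = 0.568) and Irf1 (1.81, SE 0.60, adjusted p = 0.738). Each had the larger difference in B16F10, and relative to the median gene the values were 1.27, 1.23 and 1.64. Stat2 (1.82, SE 0.89) and Irf9 (1.14, SE 0.53) had adjusted p = 0.849, and the receptor and kinase genes ran from -0.19 for Ifngr2 to 0.39 for Jak2. The median of all genes was 0.164 in this contrast and -0.007 with median-of-ratios scaling. With the libraries labelled B16mhgp100 Aoah 4 and B16F10 Vector 2 both left out, an alternative chosen after seeing the data, the differences were 1.00 for Irf7, 1.37 for Socs1, 0.92 for Irf1, 0.76 for Stat2 and 0.36 for Irf9. The smallest adjusted p was then 0.0545, for Irf7 in limma. A stronger Aoah effect in B16F10 is therefore not shown for any of the 9 by this test.

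Among the Vector tumours, Irf7 and Stat2 were lower in B16F10 than in B16mhgp100. Irf7 averaged 14.57 ± 3.67 TPM (SD, n = 2) against 68.46 ± 6.32 TPM (SD, n = 4), a log2 difference of -2.17 (SE 0.18, adjusted p = 0.00182 in limma), or -2.05 relative to the median gene. Stat2 averaged 18.38 ± 8.06 TPM (SD, n = 2) against 81.34 ± 14.0 TPM (SD, n = 4), a log2 difference of -2.14 (SE 0.27, adjusted p = 0.00896 in limma), or -2.02 relative to the median gene. These 2 of 9 members passed in the lower direction, against 3.01% of 15267 genes, or 4.87% in either direction. At an unadjusted p under 0.05, 7 of 9 passed, against 25.2%. With either B16F10 Vector library left out, Irf7 stood at -2.42 and -1.93 and Stat2 at -2.57 and -1.70. With a replicate block Irf7 passed and Stat2 did not (adjusted p = 0.0679 in limma). That block matches tumours of different models by replicate number alone, which the labels do not give as pairs. B16mhgp100 libraries whose number has no B16F10 partner then add nothing to the difference. This comparison shares the B16F10 Vector libraries with the Aoah comparison above, so that a low value there enters both.

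The remaining members of the Vector comparison were mostly lower in B16F10 without passing. Irf1 averaged 53.36 against 142.1 TPM (log2 difference -1.47, adjusted p = 0.0789 in limma), Irf9 27.07 against 46.48 TPM (-0.83, adjusted p = 0.0919) and Socs1 2.37 against 4.15 TPM (-0.61, adjusted p = 0.174). Jak2 averaged 12.09 against 19.12 TPM (-0.66, adjusted p = 0.148 in limma). Ifngr2 went the other way, 40.57 against 28.9 TPM (0.47, adjusted p = 0.18 in limma). Groups did not overlap for 6 members in the lower direction, where 21.7% of all genes had no overlap, and for Ifngr2 in the higher direction, where 13% had none. Without B16F10 Vector 1, Jak2 (-1.03), Irf1 (-2.07) and Irf9 (-1.28) passed as well, in a fit that called 3792 genes against 743, and without Vector 2 they did not, at -0.29, -0.86 and -0.38. All 6 lower members had an exact 2-sided permutation p of 0.0667, the lowest value possible for 2 against 4.

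Among the Aoah tumours no member of the 9 passed an adjusted or an unadjusted p of 0.05 in limma, against 0.13% and 11.9% of 15399 genes. Socs1 was higher in both B16F10 tumours than in any B16mhgp100 tumour (log2 difference 0.79, SE 0.34, adjusted p = 0.43 in limma), and Irf7 was lower in both (-0.74, SE 0.33, adjusted p = 0.451). Without overlap stood 19.9% of all genes in the higher and 12.2% in the lower direction. Irf1 (0.34) and Irf9 (0.31) had differences above 0, with intervals from -0.59 to 1.27 and from -0.74 to 1.37. These intervals still hold changes of more than a doubling. Without the library labelled B16mhgp100 Aoah 4, 4 members passed in limma, along with 4180 of all genes: Irf7 (-0.93, adjusted p = 0.0115), Stat2 (-0.94, adjusted p = 0.0231), Jak2 (-0.69, adjusted p = 0.0313) and Socs1 (0.90, adjusted p = 0.0418).

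**Figure D4:**
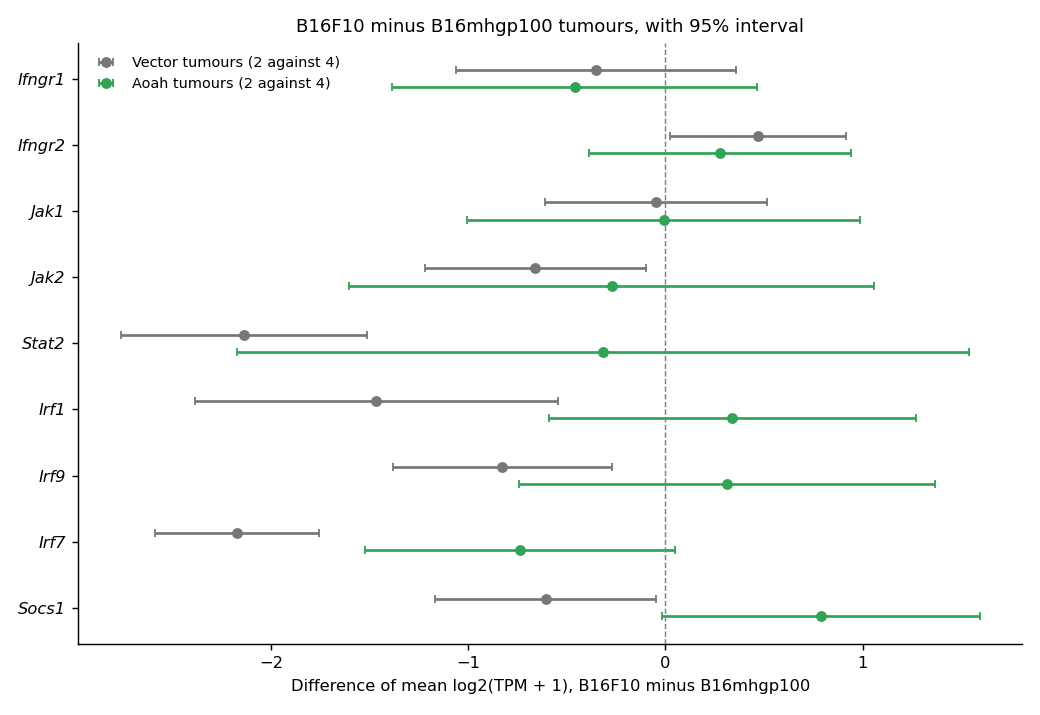
Difference of mean log2(TPM + 1), B16F10 minus B16mhgp100, for each gene among Vector tumours (2 against 4) and among Aoah tumours (2 against 4), with the 95% interval from limma. The Vector intervals of Stat2 and Irf7 end at -1.51 and -1.76, while all 9 Aoah intervals include 0. Model, antibodies and starting day differ together between the groups.

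Ordering the groups by mean gave each downstream gene its own ladder. Socs1 was the 1 member whose 4 groups had no overlap between neighbours, from B16F10 Aoah (13.6 ± 0.735 TPM, SD, n = 2) through B16mhgp100 Aoah (7.66 ± 2.19 TPM, n = 4) and B16mhgp100 Vector (4.15 ± 0.789 TPM, n = 4) to B16F10 Vector (2.37 ± 0.453 TPM, n = 2). Such a full separation of the 4 groups, in any order, was seen in 0.151% of 16556 genes. Without the library labelled B16mhgp100 Aoah 4 it held for Socs1 and Irf7 and for 0.787% of genes, and without B16F10 Vector 2 for Socs1 and for 0.546%. Irf7 ran from B16mhgp100 Aoah (87.15 ± 24.3 TPM) and B16mhgp100 Vector (68.46 ± 6.32 TPM), which overlapped, to B16F10 Aoah (50.3 ± 0.311 TPM) and B16F10 Vector (14.57 ± 3.67 TPM), which overlapped neither each other nor the groups above. Irf1 ran from B16F10 Aoah through both B16mhgp100 groups, with overlaps, down to B16F10 Vector, which overlapped no neighbour. Stat2 was highest in B16mhgp100 Vector (81.34 ± 14.0 TPM) and lowest in B16F10 Vector. These ends were separated from their neighbours at the lower end alone. Without the library labelled B16mhgp100 Aoah 4, Stat2 was instead highest in B16mhgp100 Aoah (96.89 ± 11 TPM, SD, n = 3). Irf9 was highest in B16F10 Aoah (53.66 ± 2.54 TPM), above every B16mhgp100 Vector library (46.48 ± 1.57 TPM, n = 4). Without the library labelled B16mhgp100 Aoah 4, the B16mhgp100 Aoah mean of Irf9 was 54.17 ± 2.9 TPM (n = 3), slightly higher. For Ifngr1, Jak1 and Jak2 every pair of neighbouring groups overlapped, and Ifngr2 separated at the top alone, between B16F10 Vector (40.57 ± 8.61 TPM) and B16F10 Aoah (31.45 ± 1.45 TPM).

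The rest of the pathway was read through lists of genes of the same roles. Of 14 interferon ligands and inducing cytokines, 9 were in the table and 4 were kept in B16F10, with a median log2 difference of 0.893 against 0.017 over all genes and none past the threshold. They were Ifng (1.58), Ebi3 (1.11), a subunit of interleukins of the IL-12 family, Il18 (0.68), an inducer of interferon-gamma, and Il15 (0.43), a growth factor of NK and memory T cells. Ifng and Ebi3 were below 1 TPM in both B16F10 Vector tumours. They passed the filter only through the Aoah tumours, and the list median in B16F10 includes them. In B16mhgp100 the same list had a median of 0.614, with Il15 at 0.70 and Il18 at 0.55.

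Other receptor chains and kinases showed no call in either model. Of 9 such genes, 8 were kept in B16F10, with a median of 0.103, and the 4 with the smallest p were Il10ra (1.31), the ligand-binding chain of the interleukin-10 receptor, Jak3 (1.07), the kinase of the common gamma chain, Tyk2 (0.50), a kinase of the type I interferon receptor, and Il6st (-0.37), the shared chain gp130. In B16mhgp100 the median was -0.072, with Ifnar1 (-0.58), a type I interferon receptor chain, and Il10rb (-0.29) of smallest p. Among the Vector tumours Il10rb was higher in B16F10 (1.55, adjusted p = 0.00577 in limma), the 1 call of 9 in this list, against 4.87% of all genes called in either direction.

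Other STAT and IRF genes gave no call with Aoah in either model. Of 6 other STAT genes, 5 were kept in B16F10 with a median of 0.421 and no call, with Stat3 at 0.96, Stat5b at 0.42 and Stat6 at 0.22. In B16mhgp100 their median was -0.157, with Stat4, the factor of interleukin-12 signalling, at 0.67. Of 6 other IRF genes, 5 were kept in B16F10 with a median of 0.664 and no call. Irf8, a factor of myeloid and dendritic cells that also answers interferon-gamma, measured 123.07 and 139.25 TPM in the B16F10 Aoah tumours and 24.51 and 9.06 TPM in the Vector tumours (3.04, adjusted p = 0.0667 in limma). Irf5 (0.85), Irf2 (0.66) and Irf3 (0.32) followed by p. In B16mhgp100 the IRF median was 0.312, with Irf4 at -0.65 and Irf8 at 0.60.

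Feedback inhibitors other than Socs1 gave no call with Aoah in either model. All 16 were kept in B16F10, with a median of 0.212 and none past the threshold. Usp18, which shuts down the type I interferon receptor, measured 39.04 and 38.11 TPM with Aoah and 16.40 and 8.49 TPM with Vector (1.62, adjusted p = 0.112 in limma). Ptpn6 (1.16), a phosphatase of blood cells, Socs3 (0.81), an inhibitor of the gp130 receptors, and Cish (0.70) followed. In B16mhgp100 the median was -0.153, with Socs2 (-0.36) and Socs4 (-0.27). Between Vector tumours Usp18 was lower in B16F10 (-1.76, adjusted p = 0.012 in limma), the 1 call of 16, against 4.87% of all genes called in either direction.

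Some targets of the pathway passed with Aoah in B16F10 in the main limma fit, where none of the 9 members did. Socs1 and Irf7 lay just above the threshold there (adjusted p = 0.0585 and 0.0616 in limma). The authors' deposited table called 5 of the 9 in this model, and no test compares targets with members. Of 23 interferon-gamma targets, 21 were kept in B16F10, with 20 of them above 0, where 51.6% of all genes lay, and a median of 2.354. In that model 4 rose in limma, against 0.289% of all genes called higher: H2-Ab1 (2.53, adjusted p = 0.0259) and Cd74 (2.47, adjusted p = 0.0271) of the class II pathway, H2-K1 (2.35, adjusted p = 0.043) of class I, and Psmb8 (3.18, adjusted p = 0.0433), an immunoproteasome subunit. None of these calls remained without the filter on low values, where limma called 0 of 26770 genes. In B16mhgp100 12 of 22 were above 0, against 30% of all genes, with a median of 0.093 and no call, and Psmb9 (0.64) and Cd74 (0.70) had the smallest p. Psmb8 was the 1 target of the 22 kept to pass the interaction test (2.82, adjusted p = 0.0433 in limma), against 0.0302% of 16556 genes. Between Vector tumours all 22 kept lay below 0 in B16F10 and 14 passed in the lower direction, against 3.01% of all genes, with a median of -1.935. Between Aoah tumours 14 of 22 lay above 0 and 1 passed, against 0.13% of all genes, which was Cxcl11 (-3.60, adjusted p = 0.0252 in limma), a chemokine that attracts activated T cells. Cxcl11 was below 1 TPM in every B16F10 library and passed the filter only through B16mhgp100, so its call gives no support of its own. Between Vector tumours it differed by a similar -3.64, so this difference between models was not particular to the Aoah tumours. It is among the 14 calls there, where it again passed the filter only through B16mhgp100. That call gives no support of its own either.

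Type I interferon targets followed with smaller sizes. All 22 were kept in B16F10, 21 of them above 0, with a median of 1.013. Bst2, the antiviral tether, rose (1.44, adjusted p = 0.0384 in limma), the 1 call of 22, against 0.289% of all genes called higher. This call was also lost without the filter on low values. Oasl2 (2.07), Zbp1 (2.81) and Oas3 (1.48), sensors and effectors of nucleic acid defence, did not pass. In B16mhgp100 the median was -0.017, with Zbp1 at 0.69 and Ifi27l2a at 1.79. Between Vector tumours all 22 lay below 0 in B16F10 and 12 passed in the lower direction, against 3.01% of all genes, with a median of -1.372. By the side of these lists the 9 members had medians of 1.03 in B16F10, -0.109 in B16mhgp100 and -0.659 among the Vector tumours, where all genes had 0.017, -0.201 and -0.121. These counts and medians describe the lists and no test compares them with other genes.

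**Figure D5:**
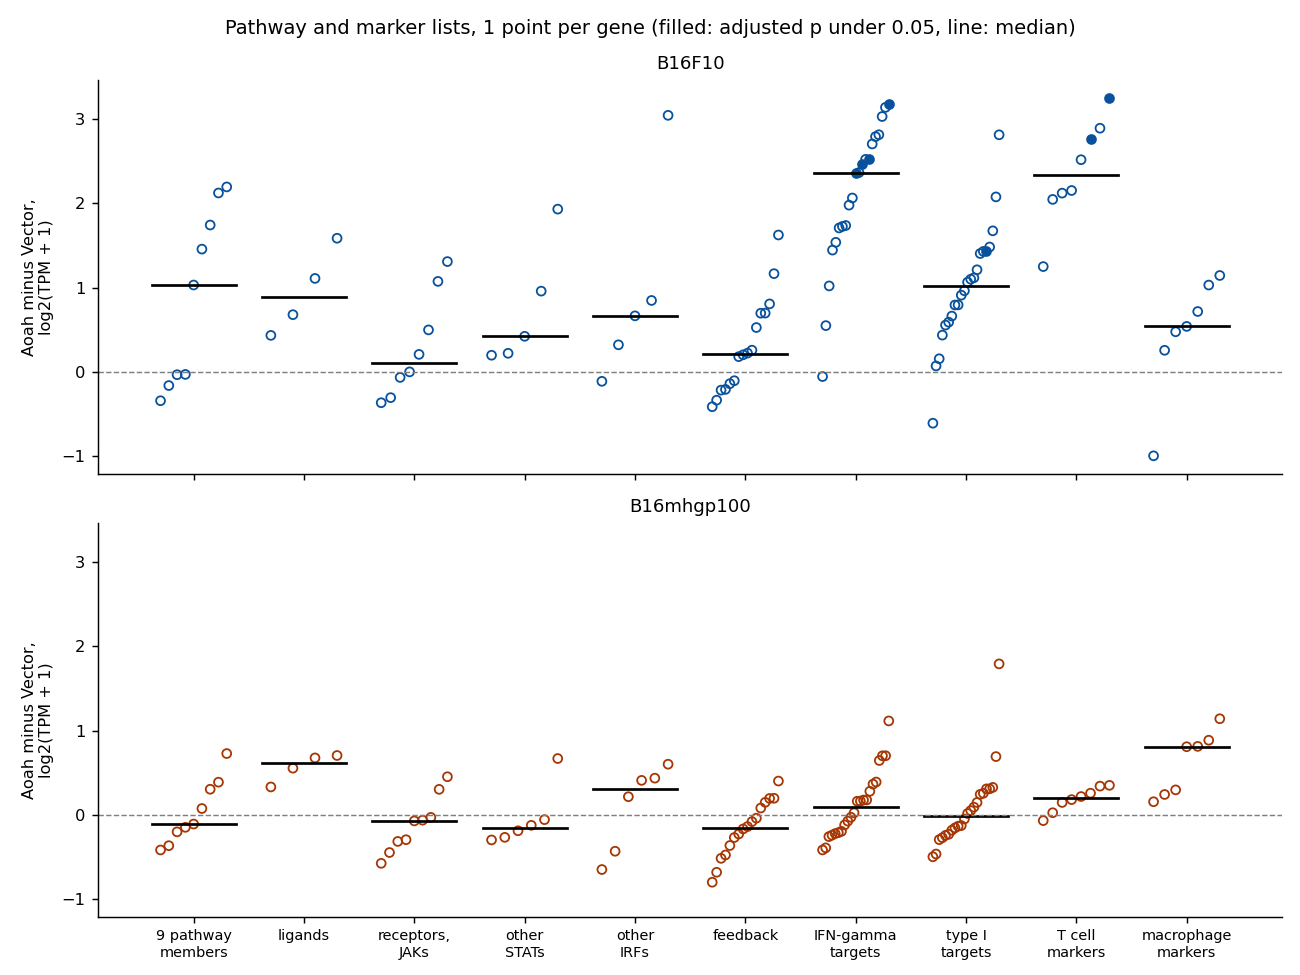
Difference of mean log2(TPM + 1), Aoah minus Vector, 1 point per gene kept, for the 9 members, the other pathway lists and 2 marker lists, in B16F10 (top) and B16mhgp100 (bottom). Lines are list medians and filled points passed an adjusted p of 0.05 in limma. The interferon-gamma targets of B16F10 centre on 2.354 and those of B16mhgp100 on 0.093.

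Variation within groups was described by correlation. After removal of the group means, and without the library labelled B16mhgp100 Aoah 4, the 6 pairs among Ifngr1, Ifngr2, Jak1 and Jak2 had Pearson correlations of log2(TPM + 1) from 0.77 to 0.86 over 11 libraries. The 10 pairs among Stat2, Irf1, Irf9, Irf7 and Socs1 ranged from 0.35 to 0.86, with a median of 0.69, and the 20 pairs across the sets from 0.19 to 0.83, with a median of 0.46. That library was left out after the data were seen. With it included, the pairs among the receptor and kinase genes stood at 0.78 to 0.90. Socs1 then stood at -0.23 with Stat2, -0.27 with Irf9, 0.07 with Irf7 and 0.16 with Irf1. Over the 11 libraries without it the 4 upstream genes also went with cell markers, whose part was not tested. They stood at 0.62 to 0.88 with the macrophage sum, 0.61 to 0.87 with the fibroblast sum and -0.90 to -0.70 with the melanocyte sum. Values were 0.64 to 0.78 with the dendritic cell sum, 0.57 to 0.67 with the T cell sum and 0.81 to 0.92 with Ifng. The B cell sum, at -0.55 to -0.16, and the keratinocyte sum, at -0.67 to -0.30, went the other way. With that library included, the values with Ifng were 0.30 to 0.75 and those with the T cell sum 0.15 to 0.42. With the library labelled B16mhgp100 Aoah 4 included, the melanocyte values changed sign, to 0.06 for Ifngr1, 0.15 for Ifngr2, 0.30 for Jak1 and 0.63 for Jak2. Jak2 then stood at -0.02 with the macrophage sum and 0.04 with the fibroblast sum. The other upstream genes stood at 0.40 to 0.60 with these sums. These are descriptions, since the points share library preparation and scaling to 1 total.

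For each member, the 3 genes with the highest Pearson correlation over the 12 libraries were taken from 13558 candidates. Without the libraries labelled B16mhgp100 Aoah 4 and B16F10 Vector 2, a choice made after seeing the data, the 27 correlations ran from 0.726 to 0.983 over 10 libraries, the lowest 3 those of Irf9 (0.726 to 0.809). Irf1 lay closest to Il18bp (0.985), the decoy receptor of interleukin-18, Igtp (0.98), an interferon-induced GTPase, and H2-M3 (0.973), a class Ib molecule. Irf7 lay closest to H2-T10 (0.984), B2m (0.972), the light chain of class I, and Trim30d (0.971). Socs1 lay closest to H2-DMa (0.968), a chain of the class II peptide editor, Idnk (0.963) and Ifi35 (0.945). Stat2 lay closest to Or2v1 (0.98), Herc6 (0.979) and Phf11d (0.972), and Irf9 to Trim21 (0.967), Parp9 (0.961) and Tor3a (0.96). The upstream members had other neighbours: Jak2 lay closest to Ythdf1 (0.99), Rnf24 (0.986) and Mtmr6 (0.984), and Jak1 to Vamp3 (0.955), Tpm4 (0.95) and Skil (0.945). Ifngr1 lay closest to Gvin-ps7 (0.968), Mefv (0.95) and Gvin2 (0.946), and Ifngr2 to Igsf3 (0.923), Lpcat1 (0.918) and Dctn6 (0.888).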

How the data were processed

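Bulk tumour RNA of 12 libraries was analysed. Per the labels, libraries came from polyA RNA with a NEBNext Ultra II kit. Per the submitters' processing notes, RSEM, DESeq2 and build mm39 were used, with versions not given in the sources used here. The deposited expression values are log2 and give TPM once a pseudocount of 1 is removed. They keep no depth. Sums were 992185 to 996590 TPM per library, with 13775 to 14791 genes at 1 TPM or more, and no counting interval can be given. The authors also deposited, for each model, the mean normalised signal per gene, the log2 fold change with its standard error, a test score and the p-value with its adjusted form. The deposited repertoire table was not used. RSEM shares reads between near-identical genes, and the kit is not stated to keep strand.

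Groups were read from sample titles. The tests ran in R 4.3.3 with limma 3.58.1 on log2(TPM + 1), with an intensity trend, 2-sided, Benjamini-Hochberg over all genes kept and a threshold of 0.05. Differences are on this scale, where low genes change by less than in TPM itself. Each comparison used its own libraries, and the interaction all 12. Exact permutation tests were 2-sided. The plan named a count model for counts per library, which was not run because the table holds TPM. The script was tested on simulated data. The 9 members and the 7 pathway and 10 marker lists were chosen with earlier results of these data known. All members are named, with from each other pathway list up to 4 genes of smallest p in B16F10 and up to 2 in B16mhgp100, and the 3 most similar genes per member, leaving out predicted genes. Genes named for other contrasts, the cell markers and repeated values of Irf8 and Usp18 by library were chosen after their values were seen. Some genes of these lists are not reported here. Alternatives changed the pseudocount, filter, scaling, trend, replicate block, fit and each library in turn.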

Additional observations from a re-analysis of the deposited data

Results flagged for a closer look

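Irf9 in the library labelled B16mhgp100 Aoah 4 measured 21.39 TPM, while the other 3 Aoah libraries of that model measured 51.44 to 57.22 TPM. The gap to its nearest neighbour was 0.839 of the range of the 4 libraries, which marks it as far from the others. Of 20 such looks, over the 9 members and Ifng in the 2 groups of 4, this was the 1 that stood out, and chance gives about 1 in 20. The same library held the lowest Aoah level of its group, 3.91 TPM, and the highest keratinocyte marker sum of the 12, 5565.68 TPM. The part of these in its Irf9 level was not tested.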

How the results depend on the processing

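Over the 621 alternative values of the 9 members, 559 kept their direction and side of the threshold, 27 newly passed it, 1 no longer passed and 34 changed sign. The number of members past the threshold in B16F10 was 0, and 2 with median-of-ratios scaling, 2 with all 12 libraries and 0 to 5 with 1 library left out. Among the Vector tumours it was 2 and ranged from 2 to 5 with 1 library left out, and among the Aoah tumours it was 0 and ranged from 0 to 4. In the interaction and in B16mhgp100 it was 0 under every alternative run. The labels do not say whether equal replicate numbers mark pairs. Deviations of same-numbered libraries from their group means correlated over genes at -0.084 in B16F10 and at -0.239 to 0.068 in B16mhgp100. With 2 libraries per group both numbers give the same value in B16F10, and such correlations cannot exclude pairing. With a replicate block the number was 4 in B16F10, 3 among the Aoah tumours and 0 in B16mhgp100 and the interaction. Among the Vector tumours it was 1 (Irf7, with Stat2 at -1.93, adjusted p = 0.0679 in limma). In the block fit Irf1 (-0.0092) and Irf9 (-0.0488) changed sign among the Aoah tumours. Between models the block matches tumours by number alone. B16mhgp100 libraries with no B16F10 partner then add nothing, the library labelled Aoah 4 among them. Those values therefore cannot speak to pairing.

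Signs changed as follows. With median-of-ratios scaling it was Ifngr2 (0.0552) and Irf9 (0.0945) in B16mhgp100, Jak1 in the interaction (-0.17) and Jak1 among the Vector tumours (0.081). With both libraries that stand apart left out, Jak1 (-0.43) and Jak2 (-0.40) changed sign in the interaction. With 1 library left out, the range crossed 0 in B16F10 for Ifngr1 (-0.29 to 0.22), Jak1 (-0.39 to 0.0619) and Jak2 (-0.40 to 0.34). It did so in B16mhgp100 for Ifngr1 (-0.13 to 0.26), Jak1 (-0.41 to 0.039), Stat2 (-0.63 to 0.26) and Irf9 (-0.24 to 0.22). In the interaction it did so for Ifngr1 (-0.36 to 0.14), Ifngr2 (-0.41 to 0.0185), Jak1 (-0.20 to 0.26) and Jak2 (-0.0299 to 0.75), among the Vector tumours for Jak1 (-0.27 to 0.18), and among the Aoah tumours for Jak1 (-0.25 to 0.20) and Irf9 (-0.0129 to 0.45). The causes were not tested.

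The number of all genes called varied more: in B16F10 50, with 32 at a pseudocount of 0.1, 129 with median-of-ratios scaling, 16 without the trend, 765 with the block and 0 without the filter, where 26770 genes were tested. In the interaction it was 5, and 2 with the block to 383 with both libraries that stand apart left out. For the Vector tumours it was 743, with 363 without the filter and 120 with the block. Among the Aoah tumours it was 20, from 10 at a pseudocount of 0.1 to 2173 with the block. The number of libraries limits all of these, and TPM keeps no depth.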
